A study of Mus musculus with 10 samples.

Results

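The regions described here were called for all 4 studied marks of histone H4 in mouse round spermatids and for none of them in spermatocytes. They are called spermatid-only regions below. Islands, that is, stretches of the genome called as enriched in immunoprecipitated over input DNA, were merged across all 8 deposited lists wherever they shared at least 1 bp. A region was kept when it lay on 1 of the 19 autosomes, held an island of each of the 4 round spermatid lists and held no island of any spermatocyte list. The rule found 2773 regions among 58242 on the autosomes, or 4.76%, and among 59989 in the whole series. They made up 12.2% of the 22802 autosomal regions with all 4 marks in round spermatids, and 21.5% of the 12895 with any round spermatid mark and no spermatocyte mark. With all lists limited to the same number of islands, those of highest fold, 4301 regions met the rule and 1107 of them overlapped the 2773, so membership differed under this change of both list length and fold. The regions were thus chosen by the calls of enrichment in both stages, so their presence in 1 stage and the height of their marks are given as a description, with no test.

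The study profiled acetylation (H4K5ac, H4K8ac) and butyrylation (H4K5bu, H4K8bu) of lysines 5 and 8 of histone H4 by chromatin immunoprecipitation and sequencing. The cells were fractionated spermatocytes and round spermatids from testis of the mouse strain Oncins France 1, with no treatment or mutation named, and age is not given in the sources used here. Immunoprecipitation was done on mononucleosomes. Each mark and stage had 1 library and each stage 1 input library, so no group had a replicate, and differences between stages are differences between libraries. The island lists do not show how pure each fraction was, so a change within a cell type and a change in the mixture of cells cannot be told apart.

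Acetyl and butyryl groups sit on the same lysines of the H4 tail, so a given lysine of a given histone carries at most 1 of them. Acetylation of K5 together with K8 forms the binding site of the first bromodomain of BRDT, a testis protein that acts in gene expression in meiotic and post-meiotic cells and in the compaction of chromatin in later spermatids. Butyrylation of K5 is known to prevent that binding. Round spermatids are the haploid cells that follow meiosis. They still hold nucleosomes, most of which are later replaced by transition proteins and then protamines.

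In spermatid-only regions H4K5ac usually had the highest fold of the 4 marks and H4K8ac usually the lowest. Their median length was 3400 bp, against 3600 bp over all autosomal regions and 2600 bp over regions with 1 to 3 round spermatid marks and no spermatocyte mark. Fold here is the ratio of immunoprecipitated to input reads, scaled for library size, in the islands of a list within a region. Over the 2773 regions, the median H4K5ac fold was 3.69 (95% interval of the median 3.66 to 3.74), with the middle 50% of regions between 3.13 and 4.36. H4K5bu had a median fold of 2.95 (2.91 to 2.97) and H4K8bu one of 2.94 (2.90 to 2.98), and H4K8ac was lowest at 2.45 (2.42 to 2.47). The medians of both butyryl marks thus lay within each other's intervals, and those of the acetyl marks lay apart from them, above at K5 and below at K8. H4K5ac had the highest fold of the 4 lists in 2086 regions, or 75.2% (73.6 to 76.8), against 86.3% of all autosomal regions with 4 round spermatid marks. H4K8ac had the lowest fold in 2032 regions (73.3%), against 80.0% of those regions. Intervals of medians come from the spread over regions, those of shares and single folds from counting alone, and none covers variation between animals or immunoprecipitations.

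The reads behind a single region were few. The median number of immunoprecipitated reads per region was 85, 93, 68 and 99 for the H4K5ac, H4K5bu, H4K8ac and H4K8bu libraries, and the input density in its H4K5ac islands was 18.6 reads per kb. In the same order of marks, the median standard error of a log2 fold from counting was 0.26, 0.26, 0.29 and 0.25. The standard deviation of the log2 fold over the regions was 0.37, 0.34, 0.34 and 0.35. Much of the variation from region to region was therefore of the size that counting alone gives, and ranks within the set are loose. Of all round spermatid reads in islands, the 2773 regions held 3.14%, 3.20%, 4.51% and 3.69%, again in that order.

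Typical members show what such a region looks like. The 3 members closest to the median strength lay at chr16:44894201-44896200, chr1:4145201-4149600 and chr9:23786001-23789200 (build mm9, positions counted from 1, as throughout). At chr9:23786001-23789200 there were 80 H4K5ac reads over 41 input reads, a fold of 4.13 (2.80 to 6.17). Both butyryl marks were lower, H4K8bu with 103 reads over 60 (2.62, 1.89 to 3.67) and H4K5bu with 76 over 39 (2.87, 1.93 to 4.34). H4K8ac had 72 over 40 (2.55, 1.71 to 3.86). All 4 intervals overlapped. The 4 folds share 1 input library, so such overlap does not decide the order of the marks, which was not tested. At chr1:4145201-4149600 the order was another, with folds of 2.88, 3.30, 3.23 and 2.60 for H4K5ac, H4K5bu, H4K8ac and H4K8bu.

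The 8 strongest spermatid-only regions had a mean log2 fold over the 4 marks of 2.54 to 2.86. Among regions with all marks in both stages, 75% were at or below 2.42 and the highest reached 3.45. The 8 were picked as the highest of 2773 on this value, so their standing against unpicked regions partly follows from the choice. The first by mean log2 fold was chr10:99048201-99051000, with 82 H4K5ac reads over 20 input reads, a fold of 8.68 (5.27 to 14.9). H4K5bu reached 7.14 there (4.32 to 12.4). At lysine 8 acetylation had a fold of 7.09 (3.55 to 15.7) and butyrylation one of 6.32 (4.21 to 9.76). A spermatocyte island lay 1600 bp from it, so this region is close to a place that was called in the earlier stage. The second, chr14:90872001-90876000, had nearly level folds of 6.61, 6.27, 6.14 and 7.13 for H4K5ac, H4K5bu, H4K8ac and H4K8bu. The third, chr1:127517001-127519000, had, in the same order, 6.35, 7.78, 7.44 and 4.86, with the H4K5bu fold above that of H4K5ac. Further down, chr3:71136001-71138600 (7.26, 5.63, 4.75 and 7.13) and chr1:15073601-15077200 (9.44, 5.00, 5.77 and 4.22) were isolated. Their nearest spermatocyte islands were 237600 and 219200 bp away. The 3 remaining regions of the 8 strongest lay at chr18:28534801-28539600, chr18:27690201-27692800 and chr17:56337001-56341200, with H4K5ac folds of 7.67, 6.94 and 6.87. The 8 had input densities of 9.09 to 13.2 reads per kb in their H4K5ac islands, below the median of the set, and a low input raises a fold.

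**Figure D1:**
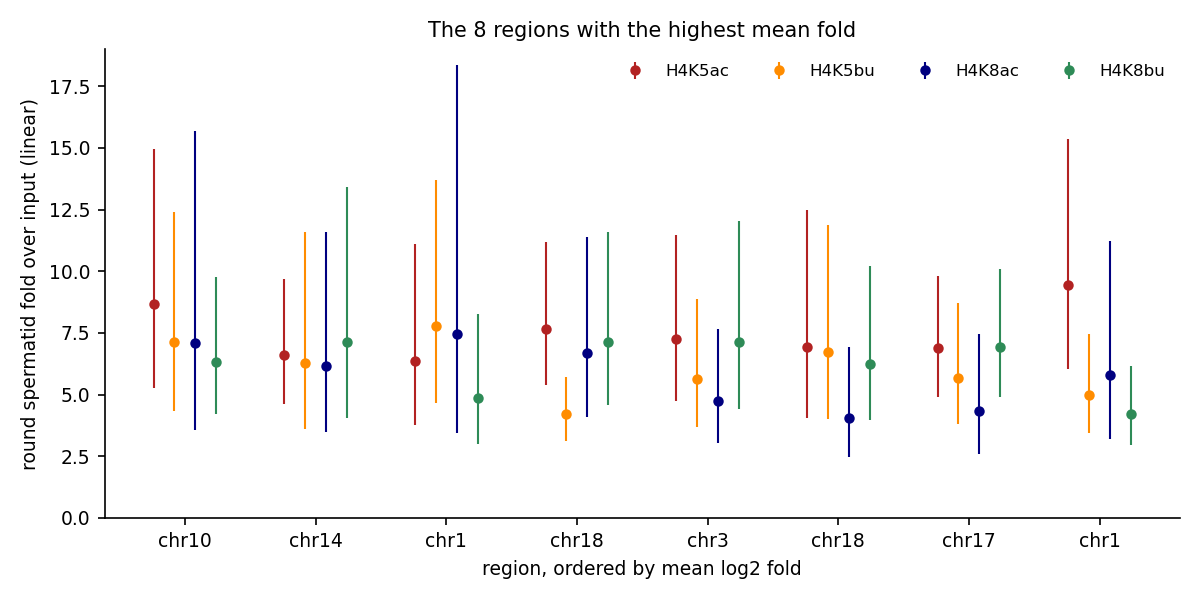
Fold over input in round spermatids for the 8 spermatid-only regions with the highest mean log2 fold, ordered from left to right; points are the 4 marks and bars their exact 95% intervals from counting. Within each of the 8 regions the intervals of the 4 marks overlap, and the H4K5ac points lie between 6.35 and 9.44.

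At the other end were regions of very deep input and little enrichment. The longest member, chr8:19913601-20038400, spanned 124800 bp and had an H4K5ac fold of 1.27 (1.23 to 1.30). Its H4K8ac fold was 1.16 (1.13 to 1.18), and the butyryl folds were 1.20 (1.17 to 1.23) at K5 and 1.21 (1.19 to 1.24) at K8. Its input density was 126 reads per kb. The next longest, chr5:15017801-15045400, had 102 input reads per kb and folds of 1.77, 1.72, 1.37 and 1.61 for H4K5ac, H4K5bu, H4K8ac and H4K8bu. Both are large by their read numbers and weak by their folds. The third, chr16:3231601-3250800, held 1.39, 1.35, 1.10 and 1.12, and chr4:70038201-70039800, 1600 bp long with 218 input reads per kb, held 1.58, 1.29, 1.33 and 1.39. The fourth longest, chr1:84779401-84792200, differed from these, with 13.5 input reads per kb and folds of 2.93, 2.92, 1.88 and 2.26. Places of deep input were rare in the set: 15 of the 2773 regions (0.541%) had over 50 input reads per kb, and 2764 (99.7%) were at most 10 kb long. The share over 50 input reads per kb was 0.281% among all autosomal regions with 4 round spermatid marks. It was 0.129% among those with all 4 marks in both stages.

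Compared with regions that had all 4 marks in both stages, spermatid-only regions were weaker for every mark and shorter. The 15547 regions of the former kind had a median H4K5ac fold of 6.26 (6.21 to 6.29) in round spermatids, against 3.69. The medians of H4K5bu, H4K8ac and H4K8bu were 4.70, 3.45 and 4.26, so the ranking of H4K5ac first and H4K8ac last was the same. The median length was 3400 bp (middle 50% from 2800 to 4200) in spermatid-only regions and 8200 bp (5800 to 12300) in regions marked in both stages. Fold and length bear on whether an island is called, and the sets were made from the calls. The length of a region marked in both stages also includes its spermatocyte islands. The input density was a little higher in spermatid-only regions, at 18.6 against 16.6 reads per kb.

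**Figure D2:**
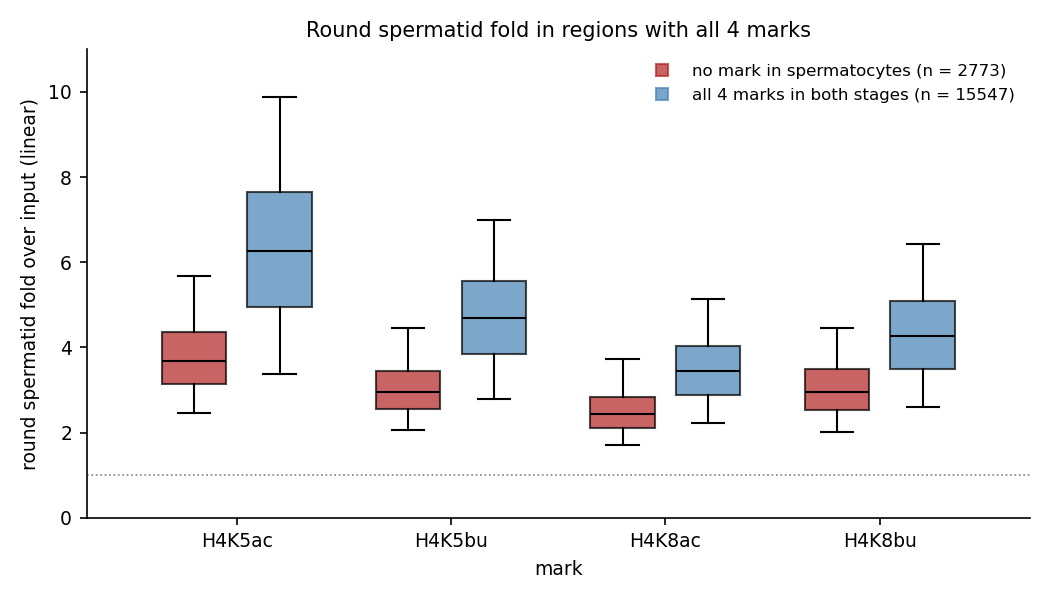
Fold over input in round spermatids by mark, for regions with no spermatocyte mark and for regions with all 4 marks in both stages; the line is the median, the box the middle 50% and the whiskers the 5th to 95th percentile over regions, and the dotted line marks no enrichment. For each mark the box of the spermatid-only regions lies lower, with medians of 3.69 against 6.26 for H4K5ac.

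The spermatid-only regions were the end of a graded series. Among regions with all 4 round spermatid marks, 1259 had an island in 1 spermatocyte list, 1752 in 2, 1471 in 3 and 15547 in all 4. The median round spermatid H4K5ac fold over these steps was 3.69 with no spermatocyte list, then 4.00, 4.33, 4.74 and 6.26. The H4K8ac fold went from 2.45 through 2.50, 2.65 and 2.76 to 3.45. Median length went from 3400 bp through 4400, 5200 and 6200 to 8200 bp. The step from 3 to 4 spermatocyte lists was the largest for each of the 4 marks, and the steps below it were small beside the spread within each class. No gap in strength set the spermatid-only regions apart from those with 1 spermatocyte list: the middle 50% of their mean log2 fold ran from 1.39 to 1.77 and that of the neighbouring class from 1.46 to 1.85.

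**Figure D3:**
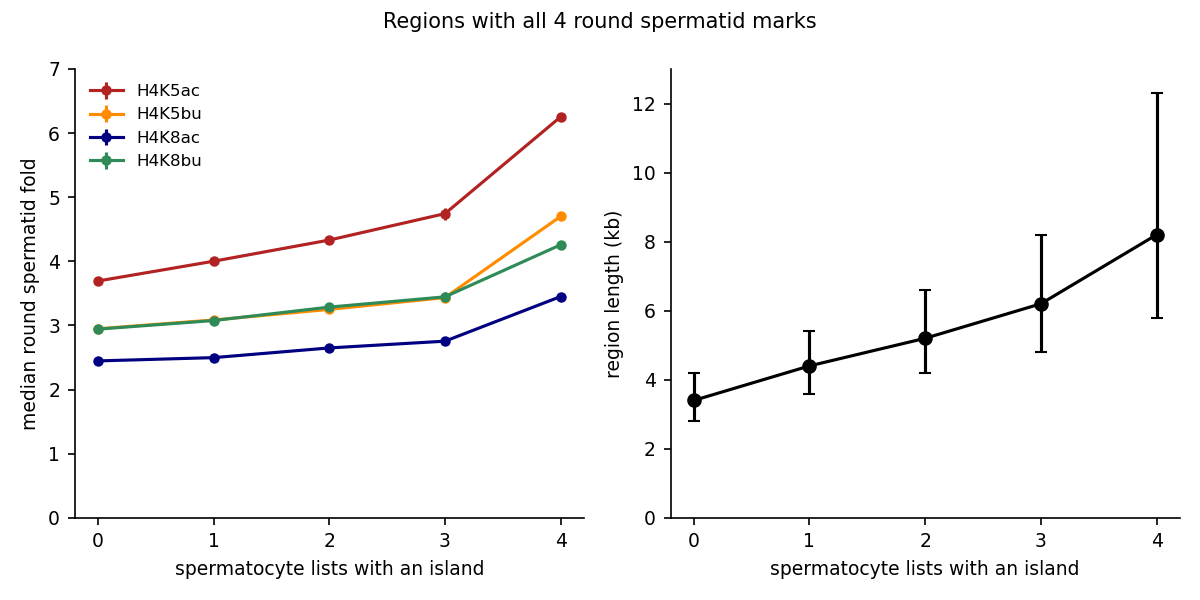
Regions with all 4 round spermatid marks, by the number of spermatocyte lists that have an island there: left, median round spermatid fold of each mark with its 95% interval; right, region length as the median with the middle 50%. Both go up from left (spermatid-only, 3400 bp) to right (8200 bp). Region length includes spermatocyte islands, so its rise partly follows from the merging.

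The rule has sharp edges where calls were marginal. Of the 1259 regions with exactly 1 spermatocyte list, 760 had only H4K5ac, 456 only H4K8bu, 30 only H4K5bu and 13 only H4K8ac. Their lone spermatocyte mark was weak, with a median fold of 2.81 where it was H4K5ac and 2.40 where it was H4K8bu. Just outside the rule, chr4:93511001-93511400 was left out for a spermatocyte H4K8bu island of 33 reads over 25 input reads (fold 1.56, 0.902 to 2.74, deposited q-value 0.00604). At chr1:141796801-141803000, a region with a spermatid H4K5ac fold of 2.00 (1.61 to 2.48) was left out for a spermatocyte H4K5ac island of 46 reads over 53 (1.47, 0.965 to 2.22). Just inside, chr13:75769001-75772000 was kept through an H4K8ac island of 66 reads over 69 (1.36, 0.953 to 1.93, q-value 0.00752), and its other folds were 1.84, 1.78 and 1.76. The region chr4:71567201-71570200 (H4K8ac fold of 1.36) was also just inside, and chr9:90196201-90198200 (spermatocyte H4K5ac fold of 1.59) was just outside. At chr2:92008201-92009000, likewise just inside, the largest q-value was that of H4K8bu (0.00600, fold 1.66, 0.914 to 3.01). These regions were picked for their marginal q-values, from which the rule was made.

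H4K8ac was the mark most often missing from regions that failed the rule on the spermatid side alone. A further 3575 regions without a spermatocyte mark had exactly 3 round spermatid lists, and 3243 of them lacked H4K8ac, while 85 lacked H4K5ac, 87 H4K5bu and 160 H4K8bu. In the 3243 the median folds of H4K5ac, H4K5bu and H4K8bu were 3.50, 2.82 and 2.82, a little under the 3.69, 2.95 and 2.94 of the spermatid-only regions. H4K8ac also had the largest q-value of the 4 lists in 88.3% of spermatid-only regions and in 95.2% of all autosomal regions with 4 round spermatid marks, and its list was the shortest of the stage, with 28031 islands. With H4K8ac left out in both stages, 6063 regions met the rule, against 2773.

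The lists hold no spermatocyte reads for these regions, so a region without an island is uncalled and its spermatocyte level is unknown. For scale, autosomal spermatocyte H4K5ac islands of 2200 to 3400 bp, the middle lengths of spermatid-only H4K5ac islands, had a median fold of 5.23 and a 5th percentile of 2.24. For islands of like size in the other spermatocyte lists the median and 5th percentile were 3.60 and 1.93 (H4K5bu), 3.81 and 1.99 (H4K8ac), and 4.09 and 1.97 (H4K8bu). The round spermatid medians of the spermatid-only regions, from 2.45 to 3.69, thus lay below the spermatocyte median and above the 5th percentile for each mark. Round spermatid islands of the same lengths had medians of 3.82, 2.95, 2.79 and 3.06 for H4K5ac, H4K5bu, H4K8ac and H4K8bu. These too lay below the spermatocyte medians, so a lower median was not particular to spermatid-only regions. All these values are of islands already called, so they do not show what the spermatocyte lists missed.

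The next comparison asked how the acetyl and butyryl folds were balanced at each lysine in these regions. The balance is the log2 ratio of the butyryl to the acetyl fold in a region. The rule did not select on it beyond asking for an island of each mark. The folds came from separate immunoprecipitations, so equal folds need not mean equal amounts of the marks. The balance therefore ranks folds alone. At K5 acetylation had the higher fold: the median balance was -0.33 (-0.34 to -0.32), and H4K5bu exceeded H4K5ac in 392 regions, 14.1% (12.9 to 15.5), against 9.66% of all autosomal regions with 4 round spermatid marks. At K8 butyrylation had the higher fold: the median was 0.29 (0.27 to 0.30), and H4K8bu exceeded H4K8ac in 2281 regions, 82.3% (80.8 to 83.7), against 84.8% of all. The butyryl fold exceeded the acetyl fold at both lysines in 311 regions (11.2%), against 7.24% of all. Over regions, the balance at K5 and that at K8 had a Pearson correlation of -0.0032 and a Spearman correlation of -0.0010 (2773 regions, all from the same 4 libraries and 1 input, with counting error in every value).

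Regions with all 4 marks in both stages had a median balance of -0.42 at K5 and 0.33 at K8. Spermatid-only regions were thus nearer to parity of the folds by 0.088 at K5 and by 0.043 at K8. The size and direction of these differences depended on which regions were compared. Where the islands of both lists were within 10% of each other in bases, the difference was 0.061 at K5 and -0.12 at K8. When both sets were limited to the middle 50% of the mean log2 fold of the spermatid-only regions, the medians at K5 were -0.33 in 1387 spermatid-only regions and -0.31 in 1848 of the others, a difference of -0.020 in the opposite direction. At K8 they were 0.28 and 0.25, also the opposite direction. Against regions marked in both stages of 2800 to 4200 bp, the difference was 0.012 at K5 and 0.043 at K8, again reversed at K8. In the weakest 25% of spermatid-only regions by mean log2 fold, the balance was -0.29 (-0.32 to -0.27) at K5 against -0.21 (-0.25 to -0.18) in regions of that strength marked in both stages, and 0.27 (0.25 to 0.29) against 0.20 (0.16 to 0.23) at K8, farther from parity at both. In the strongest 25% it was -0.36 (-0.39 to -0.33) against -0.43 (-0.44 to -0.43) at K5, nearer to parity, and 0.32 (0.28 to 0.36) against 0.34 (0.34 to 0.35) at K8, where the intervals overlapped. In the 25% above the weakest, the medians were -0.31 against -0.27 at K5 and 0.26 against 0.23 at K8. In the 25% below the strongest, they were -0.36 against -0.33 and 0.30 against 0.26. Both bands were thus farther from parity at both lysines, with overlapping intervals. The strongest band held 694 spermatid-only regions and 13011 of the others, with median lengths of 3200 and 8600 bp. No single direction of difference held across all strengths.

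**Figure D4:**
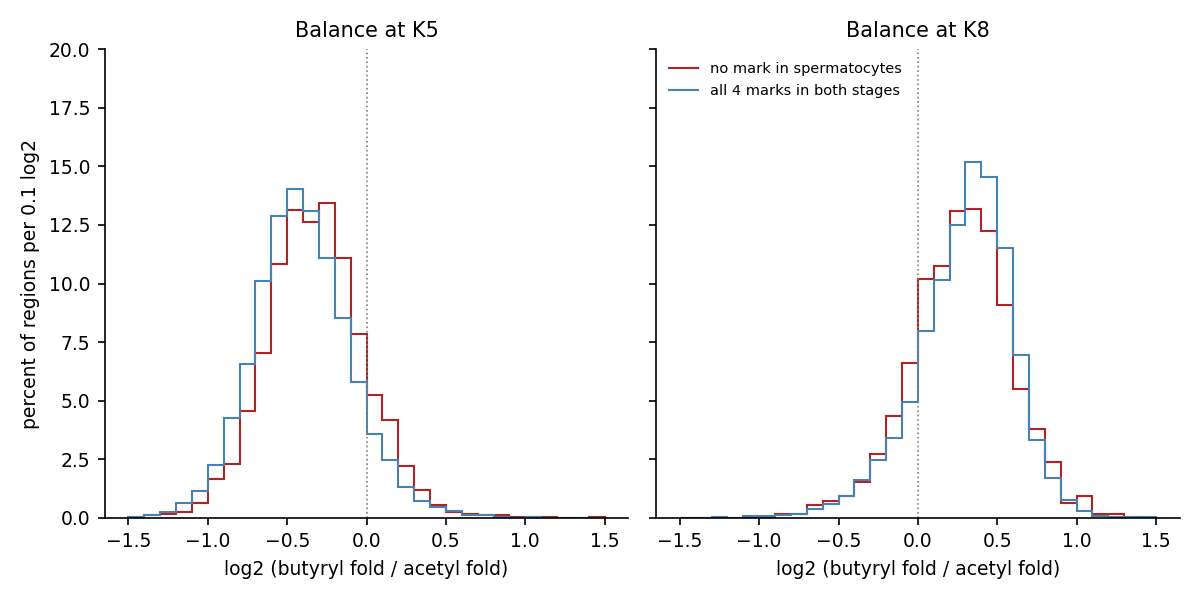
Distribution of the butyryl to acetyl balance in round spermatids at K5 (left) and K8 (right), as the percent of regions in each bin of 0.1 on the log2 scale from -1.5 to 1.5; the dotted line marks equal folds. The outlines of the sets nearly coincide, with medians of -0.33 and -0.42 at K5 and 0.29 and 0.33 at K8.

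Single regions spread widely around these medians, and the most extreme had islands of unequal length. The standard deviation of the K5 balance over regions was 0.31, where counting of the immunoprecipitated reads alone gives a median standard error of 0.22, and at K8 the values were 0.32 and 0.23. Among regions with at least 50 immunoprecipitated reads in both lists, the K5 balance most toward butyrylation, 1.18, was at chr11:100580801-100590800, with folds of 6.63 (4.05 to 11.4) for H4K5bu and 2.92 (2.33 to 3.68) for H4K5ac, but its islands covered 1600 bp and 7400 bp. The K5 balance most toward acetylation, -1.65, was at chr7:100205401-100208800, with an H4K5ac fold of 7.76 over 1600 bp and an H4K5bu fold of 2.47 over 3200 bp, a pair of intervals that did not overlap. At K8 the extremes were 1.36 at chr1:7223801-7227000 (5.39 for H4K8bu over 1400 bp, 2.10 for H4K8ac over 3200 bp) and -0.97 at chr1:4984801-4988000 (2.32 over 3200 bp, 4.55 over 1600 bp). In each of these 4 regions the mark with the higher fold had the shorter island, so fold and extent cannot be told apart there. The next most extreme balances were 1.05 at chr4:118065201-118068400 and -1.64 at chr4:52076601-52079400 for K5. For K8 they were 1.26 at chr12:27208801-27211200 and -0.86 at chr11:42721201-42724600.

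In nearly all spermatid-only regions the islands of the 4 marks had some bases in common. The rule bears on this, since it joins overlapping islands and asks for all 4 lists in 1 region. Short regions filled largely by each list leave little room for islands that do not overlap. How much of the sharing follows from the rule was not tested. In 2711 of the spermatid-only regions (97.8%) each list had exactly 1 island, against 80.2% of all autosomal regions with 4 round spermatid marks. Length was not matched here (medians 3400 and 6600 bp). The median stretch covered by all 4 lists was 1600 bp (middle 50% from 1400 to 2000), or 47.6% of the region, and in 9 regions no base was shared by all 4. H4K8bu islands reached farthest, filling a median of 82.4% of the region, followed by H4K5ac with 78.6%, H4K5bu with 73.7% and H4K8ac with 61.5%. H4K8ac had the fewest bases of the 4 in 46.8% of regions. In regions with all 4 marks in both stages the shared stretch was 4000 bp in the median, 51.9% of the region, and H4K8ac was shortest in 72.0%.

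Spermatid-only regions were unevenly placed along the genome. The rule bears on position, since it merges overlapping islands and drops every region with a spermatocyte island, and its part in the relations with density below was not tested. They lay on all 19 autosomes, but they made up 16.4% (14.4 to 18.6) of regions with 4 round spermatid marks on chromosome 3 and only 7.40% (5.45 to 9.78) on chromosome 19 and 7.50% (6.18 to 8.99) on chromosome 11. Chromosomes 18, 12, 1, 6, 4 and 16 had 14.1 to 14.6%. The share fell with the density of regions of any list per Mb, taken up to the last island of a chromosome, which ran from 20.9 on chromosome 1 to 27.8 on chromosome 11. Across the 19 autosomes, which share the same 8 libraries, Pearson's correlation was -0.82 and Spearman's -0.79, and without the 2 chromosomes farthest from the median density they were -0.76 and -0.74. The reverse class, 6722 autosomal regions that had the full set of marks in the earlier stage alone, taken as a percent of regions with 4 spermatocyte marks, had correlations of -0.38 and -0.35 with the same density.

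The same relation held at close range. Among regions with 4 round spermatid marks and no other region within 100 kb on either side, measured between midpoints, 124 of 346 were spermatid-only, or 35.8% (30.8 to 41.1). The share was 26.7% with 1 to 2 other regions, 18.4% with 3 to 4, 10.9% with 5 to 6, 6.05% with 7 to 8 and 3.44% with 9 to 10. With 11 or more it was 2.16% (1.54 to 2.92), 40 of 1856. The reverse class was also more frequent among isolated regions, at 47.2% of regions with 4 spermatocyte marks and no other region within 100 kb, and fell to 16.5% with 11 or more. Shorter regions lay in sparser surroundings, but among regions of 2800 to 4200 bp alone the spermatid-only share still went from 54.8% (45.7 to 63.8) with no other region to 9.57% (5.77 to 14.7) with 11 or more. The gradient had the same direction with lists of equal length (52.4% with no other region, 4.98% with 11 or more) and without H4K8ac (51.2% and 5.61%), alternatives chosen after the values were seen.

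**Figure D5:**
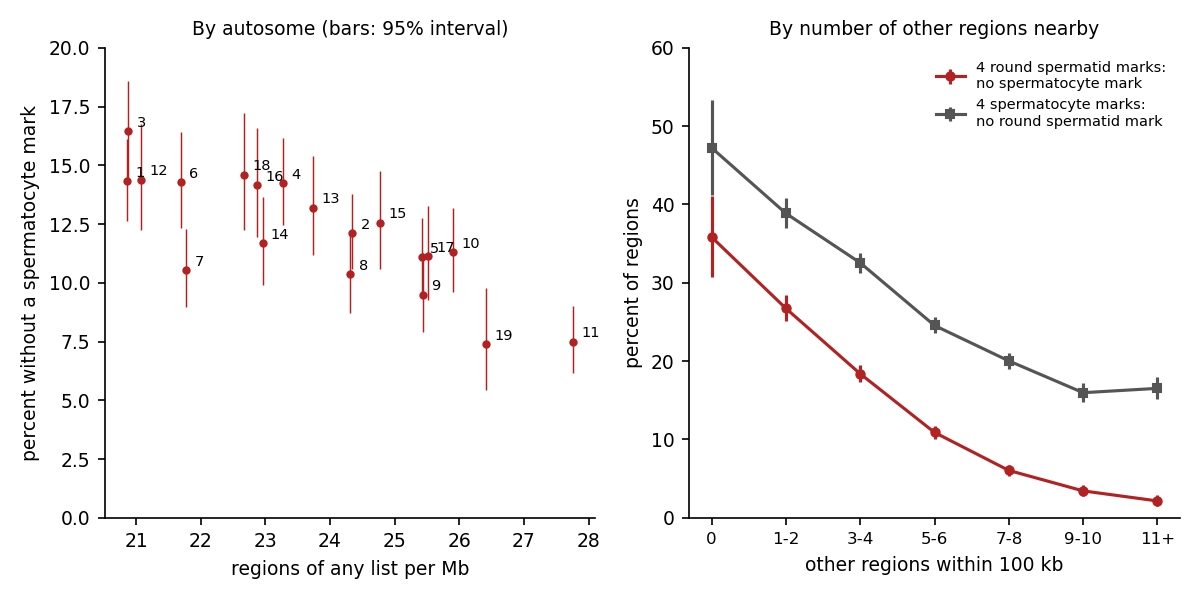
Left, spermatid-only regions as a percent of regions with 4 round spermatid marks on each autosome, against the number of regions of any list per Mb, with exact 95% intervals; right, the same percent (circles) and the percent of regions with 4 spermatocyte marks that had none in round spermatids (squares), by the number of other regions within 100 kb. The circles fall from 35.8 to 2.16% and the squares from 47.2 to 16.5%.

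Most spermatid-only regions were not at the border of a place marked earlier. The rule drops every region that a spermatocyte island overlaps, so low counts at short distances partly follow from it. The nearest spermatocyte island of any mark was at a median distance of 28000 bp (26200 to 30000). It was nearer than 1 kb for 26 regions (0.938%), nearer than 5 kb for 318 (11.5%) and nearer than 50 kb for 1842 (66.4%). Regions with 1 to 3 round spermatid marks and no spermatocyte mark lay closer, with a median of 18600 bp and 20.0% nearer than 5 kb. H4K5ac was a little lower close to spermatocyte islands. Its median fold was 3.50 (3.39 to 3.64) in the 318 regions nearer than 5 kb and 3.80 (3.73 to 3.89) in the 931 regions at least 50 kb away. Their median lengths, 3800 and 3400 bp, were not matched. The H4K8bu fold was 2.84 (2.77 to 2.95) and 2.99 (2.93 to 3.06), with overlapping intervals. The H4K5bu fold was 2.96 and 2.95, and the H4K8ac fold 2.43 and 2.48. The K5 balance was -0.24 (-0.28 to -0.21) in the near and -0.34 (-0.37 to -0.32) in the far regions, and the K8 balance 0.24 (0.20 to 0.29) and 0.29 (0.27 to 0.32).

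Spermatid-only regions had fewer neighbours marked in both stages than regions in general. Within 100 kb, 52.4% had no region with all 4 marks in both stages, against 28.8% of all autosomal regions. It was 40.9% for regions with 1 to 3 round spermatid marks and no spermatocyte mark, and 33.8% for the reverse class. Spermatid-only regions also had fewer regions of any kind within 100 kb, a median of 4 against 6 over all regions. Of the 5541 nearest regions on either side, 997 (18.0%, 17.0 to 19.0) had all 4 marks in both stages, while 26.7% of all regions did. For the reverse class this share was 21.9%. Neighbours without any spermatocyte mark were more frequent, 37.2% (36.0 to 38.5) against 22.1%. Neighbours that were themselves spermatid-only made up 10.4% (9.64 to 11.3), against 4.76% of all regions. Neighbours of the reverse class, 10.8%, were near their share of all regions, 11.5%. Neighbouring regions are not independent, and a pair of adjacent members is counted from each side.

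Runs of spermatid-only regions were short. Of the runs of consecutive members, 2229 were single regions, 223 were pairs, 30 held 3 members and 2 held 4. The more compact run of 4 spanned 67200 bp at chr4:68835601-68902800. Its members had H4K5ac folds of 4.81, 4.38, 2.83 and 3.17 and H4K8ac folds of 3.34, 2.68, 2.06 and 2.49, so the first pair lay above the medians of the set for both marks, the third below both, and the fourth below for H4K5ac and near the median for H4K8ac. The other run of 4 spanned 310800 bp at chr3:43685801-43996600, with H4K5ac folds of 4.47, 4.28, 3.50 and 6.73. A run of 3 at chr18:44400801-44452400 had 5.38, 2.47 and 3.88. On a scale of 5 Mb, the windows with at least 20 regions of 4 round spermatid marks had a median spermatid-only share of 12.2%, with the middle 50% of windows from 5.80 to 20.0%. The highest share, 14 of 24 regions (58.3%), was in the window chr4:65000001-70000000, which also held the compact run. By contrast 16 of these windows, with 888 such regions together, had no member. These windows were singled out after their values were seen.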

How the data were processed

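ChIP-seq data from 8 immunoprecipitated libraries and their 2 inputs were used as deposited lists of enriched islands, 1 list per immunoprecipitated library. Per the submitters' processing notes, the tools were CASAVA 1.8.2, Bowtie2 2.2.5, deepTools 1.5.11 and SICER, with the mouse build mm9. The settings, SICER's version and how duplicate reads were handled are not given in the sources used here. Deposited lists carry no header. The authors deposited for each island the counts of ChIP and input reads, a p-value and q-value, and a fold, the ratio of these counts times 1 constant per list. Every q-value was below 0.01. Per the labels' protocols, each immunoprecipitation took 5 ug of antibody to roughly 100 ug of mononucleosomes. Groups came from sample titles.

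From these, islands were merged, counts of a list's islands were summed per region, and folds were rescaled by the list's constant, with Python 3.11.15, pandas 2.3.3 and SciPy 1.17.1. The functions were tested on simulated data. Reads in islands numbered 4768412 to 9230541 per library. Intervals are 95%: exact (Clopper-Pearson) for shares, exact conditional binomial for folds, order statistics for medians. Those of shares and folds cover counting error only, and reads that are PCR copies are not independent molecules. No test was made between groups, each of which is 1 library. Lists of equal length, stricter q-values for round spermatid islands, lists left out, other merging and limits on reads, length or strength were tried. The members, lists of alternatives and the rule for named regions were chosen with earlier results of these data known. Named regions are the 8 strongest by mean log2 fold with at least 20 reads per list, the 4 longest, the 3 nearest the median, the 3 weakest, the extremes of balance with at least 50 reads, the longest runs, and the regions just outside the rule; those just inside were added later. Positions use mm9 and start at 1. Genes and sequences of that build were not analysed here.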

Additional observations from a re-analysis of the deposited data

Results flagged for a closer look

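The X chromosome lies outside the rule, which takes autosomes alone, and holds a signal of the same kind. On X, 160 regions had all 4 round spermatid marks and no spermatocyte mark. They made up 45.6% (95% exact interval 40.3 to 51.0) of the 351 X regions with 4 round spermatid marks, where the autosomal share was 12.2%. Their median folds of H4K5ac, H4K5bu, H4K8ac and H4K8bu were 4.11, 3.05, 2.70 and 3.14, and their median length was 3000 bp. All 4 folds were a little above the autosomal medians of 3.69, 2.95, 2.45 and 2.94, and the length was below the autosomal 3400 bp. On autosomes this share was higher where regions were sparser, and X was not matched to the autosomes for density. The difference between X and the autosomes rests on 1 library per mark and stage and was not tested.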

How the results depend on the processing

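The number of spermatid-only regions stayed between 2455 and 3641 under 13 alternatives. Among them were a q-value under 1e-05 for round spermatid islands alone, a gap of 1 kb in merging and the loss of any 1 spermatocyte list. The loss of a spermatocyte list can only add regions. The number was 6063 without H4K8ac and 4301 with lists of equal length. Identity was less stable than number: 1107 of the 4301 and 135 of the 2473 regions found when each list was limited to its 50% of islands with the highest folds overlapped the 2773. The cause was not tested. Without the upper 5% of input density the median folds were 3.75, 2.98, 2.48 and 2.99 for H4K5ac, H4K5bu, H4K8ac and H4K8bu. With islands of both lists within 10% in bases, the balance was -0.36 at K5 and 0.40 at K8, and its difference from regions marked in both stages 0.061 and -0.12. Against regions of member length the difference was 0.012 at K5 and 0.043 at K8, and within the middle 50% of mean log2 fold, an alternative chosen after seeing the data, -0.020 and 0.030, from 0.088 and -0.043 with all regions. Spermatid-only neighbours made up 20.7% without H4K8ac, where 10.6% of all regions met the rule, and 13.2% with lists of equal length, where 9.03% did. The direction was thus the same, but with lists of equal length the ratio was 1.46 in place of 2.19. The share among regions with all round spermatid marks and no other region within 100 kb was 51.2% without H4K8ac, 52.4% with lists of equal length and 52.9% with the 50% of islands of highest fold. With 11 or more other regions it was 5.61%, 4.98% and 5.59%, against 35.8% and 2.16% with the lists as deposited; these alternatives, too, were chosen after seeing the data. No paired analysis was possible because each group had 1 library.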
